A study of Homo sapiens with 4 samples.

Results

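The 52 genes described here encode the machinery that releases neurotransmitter at the presynaptic terminal. They were taken by name from a fixed list of synaptic vesicle, SNARE, synaptotagmin and active zone genes, and all 52 were found among the 28307 gene symbols in the files. The tested group was 2 libraries of excitatory neurons given guide RNAs against 1 MIR-family transposable element on chromosome 11 (CRISPRi), and it was compared with 2 libraries of the same neurons given the vector with no guide (control). Both groups were i3N-WTC11 neurons, made from a single human induced pluripotent stem cell line, and both carried dCas9-KRAB, a dead Cas9 fused to a repressor domain that silences the DNA a guide matches, expressed from a CAG promoter in an intron of CLYBL. Lentivirus was added after 2 weeks of differentiation at a multiplicity of infection near 3, puromycin (0.5 μg/mL) was given for 4 days, and polyA RNA was collected 7 days after the virus. The study used 2 guides per element, and the sources used here do not say which guide went into which library.

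Transmitter is stored in synaptic vesicles and released when calcium triggers their fusion with the membrane at the active zone. Fusion is driven by SNARE proteins, a synaptobrevin on the vesicle and a syntaxin with a SNAP25 protein on the membrane, while synaptotagmins act as calcium sensors and complexins as clamps and helpers. Most of these proteins come in families of related genes (paralogs), of which neurons use some and other cells use others, so that the choice among paralogs is part of a neuron's identity.

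The libraries held 44839748 and 41560282 gene counts in CRISPRi replicates 1 and 2 and 944993 and 39325038 in control replicates 1 and 2. Control replicate 1 is therefore 41.6 times shallower than control replicate 2, and 1 count there equals 1.06 CPM (gene counts scaled by the library total). All 12 neuron markers were detected in every library, at summed levels of 22691 and 23499 CPM in CRISPRi neurons and 19967 and 22857 CPM in controls. The 15 markers of dividing cells summed to 84.4 and 90.1 CPM in CRISPRi neurons, against 543.9 and 91.6 CPM in control replicates 1 and 2, with all 15 highest in control replicate 1. Of 7 astrocyte markers, 6 were at 0 to 4.23 CPM, and the glutamate transporter SLC1A2 was at 174 and 173 CPM in CRISPRi neurons, against 139.7 and 89.0 CPM in controls. The pluripotency markers TDGF1 and ZFP42 and the oligodendrocyte factor SOX10 had no counts in any library. The element has no gene row of its own, and its silencing was not analysed here. Because control replicate 1 differs in depth and in these markers, each comparison is given with it and without it.

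The promoters of 3 members are shown as examples. SYN1 was the leading synapsin and the only matched member with the RE1 letters. VAMP2 was the highest of the 52 members per kb. Its paralog VAMP3 was the only member whose counting interval in control replicate 1 lay above the other libraries. The promoters are RefSeq sequences on GRCh38.p14, from 250 bases before to 50 after the gene start, 5′ to 3′ on the gene's strand. Capitals mark the RE1 core (CAGCACC, 2 free bases, GGACAG; part of the element bound by REST, a repressor of neuronal genes in other cells), the E-box CAGATG, the cyclic AMP response element TGACGTCA and the GC box GGGCGG, searched on both strands. SYN1 lies at chrX:47619808-47620107 (minus strand), VAMP2 at chr17:8162827-8163126 (minus strand, 1 of 2 starts listed) and VAMP3 at chr1:7771046-7771345 (plus strand).
SYN1: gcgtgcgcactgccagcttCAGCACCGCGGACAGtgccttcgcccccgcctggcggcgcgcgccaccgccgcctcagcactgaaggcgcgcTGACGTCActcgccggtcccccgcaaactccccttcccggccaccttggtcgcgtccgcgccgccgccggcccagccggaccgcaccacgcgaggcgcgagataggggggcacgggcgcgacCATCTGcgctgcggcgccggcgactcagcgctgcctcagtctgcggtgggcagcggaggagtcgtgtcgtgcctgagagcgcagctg
VAMP2: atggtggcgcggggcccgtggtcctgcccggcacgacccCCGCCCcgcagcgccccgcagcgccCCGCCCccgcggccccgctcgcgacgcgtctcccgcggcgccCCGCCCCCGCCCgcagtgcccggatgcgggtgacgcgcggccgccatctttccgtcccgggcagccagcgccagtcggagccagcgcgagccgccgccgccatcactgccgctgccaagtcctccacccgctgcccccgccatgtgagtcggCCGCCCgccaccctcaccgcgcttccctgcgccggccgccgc
VAMP3: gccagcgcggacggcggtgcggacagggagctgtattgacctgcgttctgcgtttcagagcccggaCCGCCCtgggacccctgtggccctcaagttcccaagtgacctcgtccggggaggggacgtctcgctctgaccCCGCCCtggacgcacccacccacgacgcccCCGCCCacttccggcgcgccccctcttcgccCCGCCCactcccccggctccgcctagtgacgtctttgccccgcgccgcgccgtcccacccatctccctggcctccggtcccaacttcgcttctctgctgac

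In SYN1 the RE1 core lies from -231 to -217 relative to the gene start, the response element from -159 to -152 and the E-box, on the other strand, from -37 to -32. The RE1 letters were found in 1 of 65 promoters of the 42 members that the RefSeq table covers, and in 16 of 22199 promoters of protein-coding genes (0.0721%). VAMP2 holds 5 GC boxes and VAMP3 holds 4, with no overlap between any of the marked motifs. The GC box was found in 63.1% of the members' promoters and in 56.3% of coding promoters, and the E-box in 13.8% and 12.2%. These matches describe letters only. Taking each member's most CpG-rich start, the median GC content was 70.5% for the 20 covered members among the 26 highest per kb and 67.7% for the 22 among the 26 lowest, while the median ratio of observed to expected CpG was 0.855 in the first and 0.877 in the second. The difference in composition was not tested.

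Levels between genes are compared as CPM per kb of exonic length (GENCODE release 29), so that long genes are not favoured. On that scale the order was led by VAMP2, with 149 ± 0.342 in CRISPRi neurons and 148 ± 10.1 in controls (CPM per kb, mean ± SD, n = 2 each). CPLX2 followed with 127 ± 4.3 and 128 ± 7.32, SYT1 with 128 ± 4.0 and 118 ± 16.1, SYP with 120 ± 4.52 and 115 ± 11.8, and SYT4 with 123 ± 3.01 and 107 ± 14.8 (CPM per kb, mean ± SD, n = 2 each, CRISPRi and control). VAMP2 lay above CPLX2 by more than the SD of either gene in either group. Each next pair of neighbours in the order CPLX2, SYT1, SYP, SYT4 differed in the controls by less than the larger of its 2 SDs. By the authors' deposited FPKM, which uses other lengths, SYP exceeded VAMP2 in every library, with 246 and 260.2 against 224 and 223 FPKM in CRISPRi neurons and 223 and 259 against 210.2 and 232 FPKM in controls. At the other end SYT12, CPLX3, UNC13C and SNAP23 were each under 1 CPM per kb in both groups. By mean CPM, 25 members were over 100, 22 between 10 and 100, and 5 under 10.

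**Figure D1:**
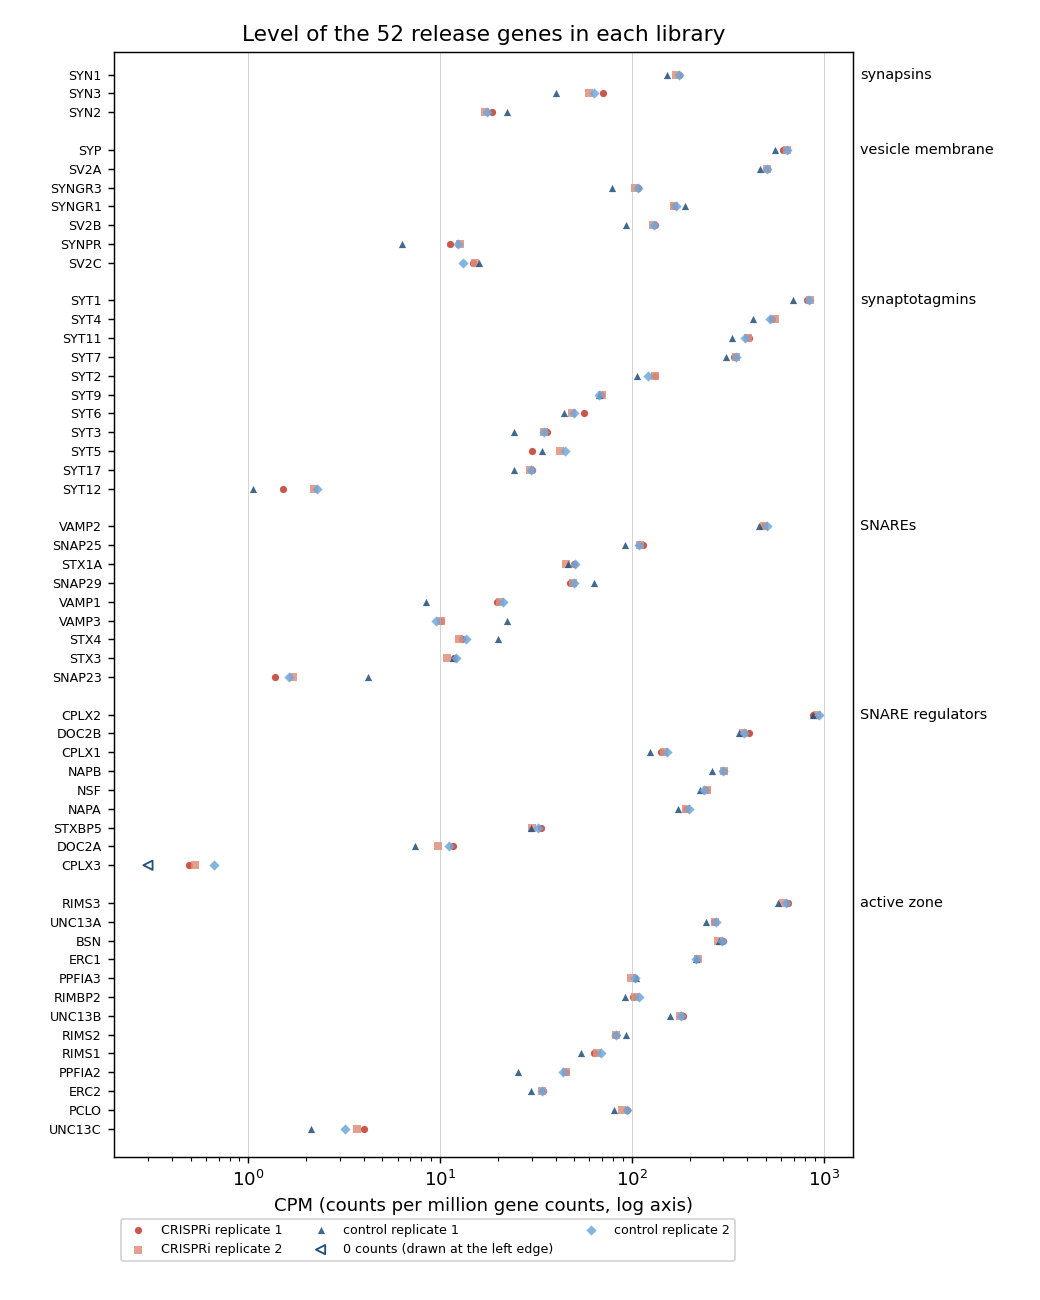
CPM of each of the 52 genes (log axis) in the 2 CRISPRi and 2 control libraries, ordered within each role by the level per kb. For most genes the 3 deep libraries coincide, while control replicate 1 (dark triangles) lies to the left for 39 genes and to the right for 9, VAMP3 among them; the open triangle stands for 0 counts of CPLX3.

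Synapsins coat vesicles and tether them in the reserve pool. SYN1 was at 176 and 171 CPM in CRISPRi neurons, against 152 and 176 CPM in controls, and made up 75.0% ± 1.44 of the family per kb in CRISPRi and 76.8% ± 1.56 in controls (SD, n = 2 each). SYN3 was at 70.3 and 60.0 CPM in CRISPRi neurons, against 40.2 and 63.7 CPM in control replicates 1 and 2. SYN2, which in the adult brain accompanies SYN1, was the lowest, at 18.6 and 17.2 CPM against 22.2 and 17.6 CPM in controls. The order SYN1, SYN3, SYN2 was the same in each of the 4 libraries, and the groups overlapped for all 3 genes.

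Among the proteins of the vesicle membrane, synaptophysin (SYP) was at 612 and 645 CPM in CRISPRi neurons, against 557 and 643 CPM in controls, and its relative synaptoporin (SYNPR) at 11.3 and 12.7 CPM and at 6.35 and 12.4 CPM. SYP held 97.7% ± 0.104 of that pair per kb in CRISPRi and 98.1% ± 0.666 in controls (SD, n = 2 each). SV2A, the SV2 protein that binds the antiepileptic levetiracetam, was at 505 and 505 CPM in CRISPRi neurons, against 465 and 508 CPM in controls, and made up 89.9% ± 0.0618 and 90.9% ± 1.06 of the SV2 family (SD, n = 2 each). SV2B was at 132 and 129.6 CPM in CRISPRi neurons, against 93.1 and 129.8 CPM in controls, and SV2C at 14.8 and 15.2 CPM against 15.9 and 13.2 CPM. In each of these genes the groups overlapped, and control replicate 1 was the lowest library except for SV2C.

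Of the synaptogyrins, SYNGR3 was at 107 and 104 CPM in CRISPRi neurons, against 78.3 and 108 CPM in controls, and SYNGR1 at 165 and 166 CPM against 189 and 169.6 CPM. Per kb, SYNGR3 held 56.5% ± 0.696 in CRISPRi and 51.0% ± 7.53 in controls (SD, n = 2 each), and it was below SYNGR1 in control replicate 1, with 45.7%. By raw counts SYNGR1 was the higher in every library, so the order depends on the division by length.

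The 11 listed synaptotagmins were the one family in which no member reached 50% in any library. Shares here are of these 11 genes only. SYT13, outside the list, was at 132 and 120.4 CPM in CRISPRi neurons, against 92.1 and 115 CPM in controls. SYT1, the fast calcium sensor of synchronous release, held 28.5% ± 0.380 of the family per kb in CRISPRi and 28.95% ± 0.470 in controls, and SYT4, a form whose calcium binding is altered and which is found on dense core vesicles, 27.4% ± 0.178 and 26.3% ± 0.476 (SD, n = 2 each). SYT11, which also lacks normal calcium binding, held 17.3% ± 0.402 and 17.01% ± 0.186, and SYT7, the slow high-affinity sensor, 12.9% ± 0.0129 and 13.6% ± 0.567 (SD, n = 2 each). SYT2, the fast sensor of hindbrain and neuromuscular synapses, was at 132 and 132 CPM in CRISPRi neurons, against 107 and 121 CPM in controls. SYT9, another fast sensor, was at 69.1 and 69.6 CPM against 67.7 and 67.7 CPM in controls. SYT6 was at 56.1 and 49.0 CPM against 44.4 and 50.1 CPM in controls, SYT3 at 36.2 and 34.67 CPM against 24.3 and 34.66 CPM, and SYT17 at 30.2 and 29.6 CPM against 24.3 and 29.9 CPM. Each of these 3 held under 3% of the family, and SYT12 had 68 and 92 counts in the CRISPRi neurons, against 1 and 90 in controls.

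SYT5 had 1357 and 1744 counts in CRISPRi, or 30.3 and 42.0 CPM, against 32 and 1772 counts in controls, or 33.9 and 45.1 CPM. CRISPRi replicate 1 was thus lower than CRISPRi replicate 2, with control replicate 1 between them. Over the 47 members with a mean over 10 CPM, the highest of the 3 deep libraries exceeded the lowest by a median ratio of 1.05, by less than 1.1 for 38, and by 1.49 for SYT5.

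Of the SNARE proteins, the synaptobrevin VAMP2 was at 488 and 486 CPM in CRISPRi neurons, against 460.3 and 507 CPM in controls. It made up 94.1% ± 0.105 of its family per kb in CRISPRi and 93.7% ± 0.820 in controls (SD, n = 2 each). VAMP1, its close relative at neuromuscular and brainstem synapses, was at 19.8 and 20.6 CPM in CRISPRi neurons, against 8.47 and 21.3 CPM in controls. Its deposited FPKM was 7.05 and 7.36 in CRISPRi neurons, against 6.45 and 7.33 in controls, so how low it was in control replicate 1 depends on the unit. VAMP3 (cellubrevin), which serves endosome recycling in most cells, was at 10.1 and 10.1 CPM in CRISPRi neurons, against 22.2 and 9.56 CPM in controls. Control replicate 1 was the lowest library for VAMP1 and the highest for VAMP3.

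SNAP25, the neuronal member of its family, was at 114 and 109.8 CPM in CRISPRi neurons, against 92.1 and 109 CPM in controls, with both CRISPRi libraries above both controls. SNAP29, which acts in autophagosome fusion, was at 47.8 and 49.1 CPM against 63.5 and 49.9 CPM, with both CRISPRi libraries below both controls. SNAP23, the form of non-neuronal cells, had 62 and 71 counts in the CRISPRi neurons, against 4 and 64 in controls, 1.38 and 1.71 CPM against 4.23 and 1.63 CPM. SNAP25 held 76.8% ± 0.861 of the family per kb in CRISPRi and 71.4% ± 6.28 in controls, and SNAP23 held 0.605% ± 0.0990 and 1.20% ± 0.783 (SD, n = 2 each). The difference in the SNAP25 share between groups lies within the spread of the controls.

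The syntaxin STX1A, the plasma membrane partner of SNAP25, was at 49.9 and 45.2 CPM in CRISPRi neurons, against 46.6 and 50.2 CPM in controls, and held 72.5% ± 0.612 and 68.9% ± 5.04 of the 3 listed syntaxins per kb (SD, n = 2 each). STX4, a syntaxin of many non-neuronal cells, was at 13.1 and 12.6 CPM in CRISPRi neurons, against 20.1 and 13.6 CPM in controls. STX3, of ribbon synapses and epithelia, was at 11.9 and 10.9 CPM in CRISPRi neurons and 11.6 and 12.1 CPM in controls.

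Among the regulators of SNARE assembly, CPLX2 was at 877 and 920.0 CPM in CRISPRi neurons, against 874 and 948 CPM in controls, with CPLX1 at 142 and 146 CPM against 125 and 153 CPM. CPLX2 held 67.9% ± 0.282 of the complexins per kb in CRISPRi and 69.1% ± 1.95 in controls (SD, n = 2 each). CPLX3, the complexin of retinal ribbon synapses, had 22 and 22 counts in the CRISPRi neurons, against 0 and 26 in controls; 0 counts in control replicate 1 allow up to 3.17 CPM by the limit of 3 counts, and up to 3.90 CPM by the 2-sided Poisson interval, either of which is more than the 0.491 to 0.661 CPM of the deep libraries. DOC2B, a high-affinity calcium sensor for spontaneous release, was at 406 and 379 CPM in CRISPRi neurons, against 359.8 and 383 CPM in controls, and DOC2A at 11.7 and 9.74 CPM against 7.41 and 11.1 CPM. STXBP5 (tomosyn), which inhibits SNARE assembly, was at 33.4 and 30.0 CPM in CRISPRi neurons, against 29.6 and 32.2 CPM in controls.

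The ATPase NSF and its SNAP adaptors take spent SNARE complexes apart. NSF was at 243 and 246 CPM in CRISPRi neurons, against 225 and 237 CPM in controls. NAPB, the brain form of the adaptor, was at 304 and 302 CPM against 261 and 297 CPM, and the ubiquitous NAPA at 191 and 192 CPM against 174 and 197 CPM. NAPB exceeded NAPA per kb, with 63.9% ± 0.0934 of the pair in CRISPRi and 62.7% ± 0.000931 in controls (SD, n = 2 each), but the authors' deposited FPKM put NAPA first, with a mean share of 59.7% in CRISPRi and 61.0% in controls, so that the order of this pair differs between the 2 units. Both CRISPRi libraries lay above both controls for NSF and NAPB and not for NAPA. The only rows of NSF and DOC2B lie on alternate contigs of chromosome 17, where the deposited FPKM is 0. Reads of NSF can also fall on its near-copy NSFP1, which had 1026 and 1006 counts in the CRISPRi neurons, against 24 and 913 in controls, so the NSF level is uncertain by that margin.

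At the active zone RIM proteins tether vesicles and calcium channels. RIMS3, a short form that lacks the vesicle-binding part of the long RIMs, was at 652 and 614 CPM in CRISPRi neurons, against 579.9 and 638 CPM in controls. It made up 88.8% ± 0.607 and 88.2% ± 0.450 of the listed RIM genes per kb (SD, n = 2 each). The long RIMs were far lower, RIMS1 at 63.3 and 65.7 CPM in CRISPRi neurons and 54.0 and 68.7 CPM in controls, and RIMS2 at 81.3 and 82.9 CPM and 93.1 and 82.8 CPM. RIMBP2, which links RIM to calcium channels, was at 101 and 104 CPM in CRISPRi neurons and 92.1 and 108 CPM in controls. RIMS3 was first in each of the 4 libraries, and the groups overlapped for all of these genes.

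MUNC13 proteins prime vesicles by opening syntaxin. UNC13A, the main form at glutamate synapses, was at 269 and 270.3 CPM in CRISPRi neurons, against 244 and 276 CPM in controls, and UNC13B at 185 and 179 CPM against 158 and 181 CPM. UNC13C, a form best known from the cerebellum, had 179 and 153 counts in the CRISPRi neurons, against 2 and 126 in controls. UNC13A held 69.8% ± 0.652 of the family per kb in CRISPRi and 70.7% ± 0.340 in controls (SD, n = 2 each). By the authors' deposited FPKM UNC13A held 48.3% and 49.3% in CRISPRi neurons, against 67.0% and 49.5% in control replicates 1 and 2, so the order of UNC13A and UNC13B also depends on the unit.

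The large scaffold bassoon (BSN) was at 297 and 281 CPM in CRISPRi neurons, against 285 and 294 CPM in controls, and piccolo (PCLO) at 94.5 and 89.3 CPM against 80.4 and 94.7 CPM. BSN held 81.6% ± 0.00380 of this pair per kb in CRISPRi and 82.4% ± 1.34 in controls (SD, n = 2 each). ERC1, which is expressed in many cell types, was at 219 and 221 CPM in CRISPRi neurons, against 215 and 216 CPM in controls, and exceeded the brain form ERC2, at 34.3 and 34.0 CPM against 29.6 and 33.8 CPM. Of the liprins, which organise the active zone, PPFIA3 was at 103 and 98.7 CPM in CRISPRi neurons, against 105 and 103 CPM in controls. PPFIA2 was at 45.4 and 45.2 CPM in CRISPRi neurons, against 25.4 and 43.8 CPM in control replicates 1 and 2. PPFIA3 held 75.2% and 74.3% of this pair per kb in CRISPRi neurons, against 84.6% and 75.8% in control replicates 1 and 2, so control replicate 1 again stood apart from the other libraries.

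**Figure D2:**
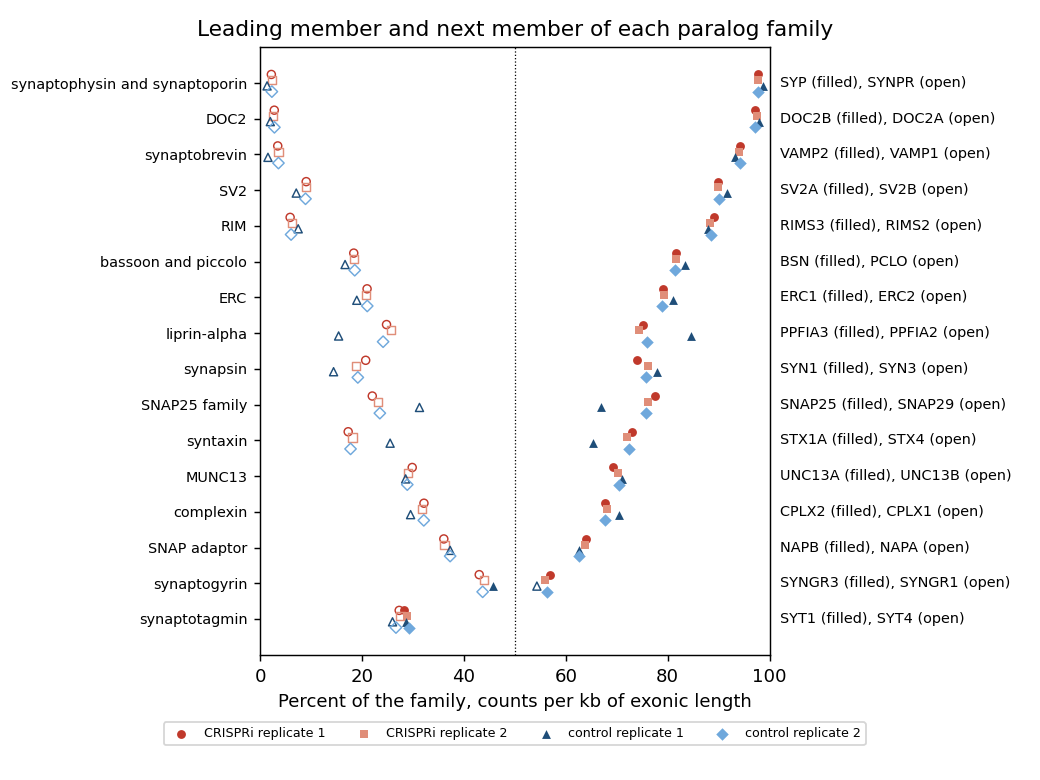
Share of each paralog family, taken over its listed members (percent, counts per kb of exonic length), held by its leading member (filled) and by the next member (open) in each library. In 14 of the 16 families the leader holds over 50% in all 4 libraries; the exceptions are the synaptotagmins and the synaptogyrins, whose order turns in control replicate 1.

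Taking the families together, 1 member held over 50% per kb in all 4 libraries in 14 of 16 families, and in 15 of 16 without control replicate 1. Each share is taken over the listed members of the family only. Among the leaders were SYN1, SYP, SV2A, SNAP25, VAMP2, STX1A and CPLX2. With 2 libraries against 2, an exact permutation test cannot reach a p below 0.33, so the shares are given as a description and the groups are tested only in the fit over all genes.

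That fit asked whether silencing the element changed the expression of the release genes. No member passed. Of 52 members tested, 0 were higher and 0 lower in CRISPRi (edgeR quasi-likelihood test, adjusted p under 0.05), against 0% of all 15708 tested genes called higher and 0.0255% called lower. By an unadjusted p under 0.05, 0 members and 151 of the 15708 tested genes (0.961%) passed. That share is smaller than the threshold itself, so this fit was conservative and 0 members passing says little about them. DESeq2 and limma-voom also called 0 members. Fitted log2 fold changes (CRISPRi over control) ran from -0.41 for SNAP23 to 0.35 for UNC13C, both with few counts, with a median of 0.06 over the members and 0.01 over all genes. Fold changes come from the fitted counts, whereas the means ± SD weight the libraries equally, so their values can differ. The low depth of control replicate 1 did not keep it from moving the fit. With it 38 of the 52 members had a positive fold change, against 52.7% of all tested genes. Without it 21 did, against 49.9% of all tested genes.

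The intervals set how large a change these libraries leave possible. For 40 of the 52 members the 95% confidence interval lay within a 1.5-fold change in either direction, and for 47 within a 2-fold change. The 5 others were CPLX3, SNAP23, SYT12, UNC13C and VAMP3, all at 22.2 CPM or less in every library. On the log2 scale VAMP2 had a fitted value of 0.02 (interval -0.20 to 0.24), CPLX2 of -0.01 (-0.22 to 0.21) and BSN of 0.01 (-0.19 to 0.21). For these abundant genes the interval leaves out a change of 1.5-fold.

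The members with the smallest p among those with a positive fold change were SYT2, SYT4, SYT11, NAPB and SNAP25, and none passed. SYT2 had a log2 fold change of 0.19 (SE 0.09, interval -0.02 to 0.40), and SYT4 had 537 and 556 CPM in CRISPRi against 429.6 and 523 CPM in controls, a fold change of 0.20 (SE 0.12, interval -0.09 to 0.49). SYT11 was at 408 and 405 CPM in CRISPRi neurons, against 334 and 390.5 CPM in controls (log2 fold change 0.17, SE 0.10). NAPB and SNAP25 each had a log2 fold change of 0.12 (SE 0.09 and 0.10). In all 5 both CRISPRi libraries lay above both controls, with control replicate 1 the lowest library. Leaving out 1 library at a time gave 0.127 to 0.3328 for SYT2, 0.0701 to 0.377 for SYT4, 0.0622 to 0.31 for SYT11, 0.0334 to 0.244 for NAPB and 0.0435 to 0.311 for SNAP25.

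Among those with a negative fold change the smallest p belonged to SYNGR1, SYT5, SNAP29, STX4 and SNAP23, and none passed. SYNGR1 had a log2 fold change of -0.09 (SE 0.08), SNAP29 one of -0.12 (SE 0.12) and STX4 one of -0.20 (SE 0.19). SYT5 was at -0.22 (SE 0.21), and SNAP23 at -0.41 (SE 0.58). Except for SYT5, these are genes for which control replicate 1 was the highest library. Leaving out 1 library at a time, the value ran from -0.167 to -0.0322 for SYNGR1, from -0.359 to -0.0347 for SNAP29, from -0.62 to -0.0804 for STX4 and from -1.42 to -0.0701 for SNAP23, in each case farthest from 0 without control replicate 2 and nearest without control replicate 1.

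**Figure D3:**
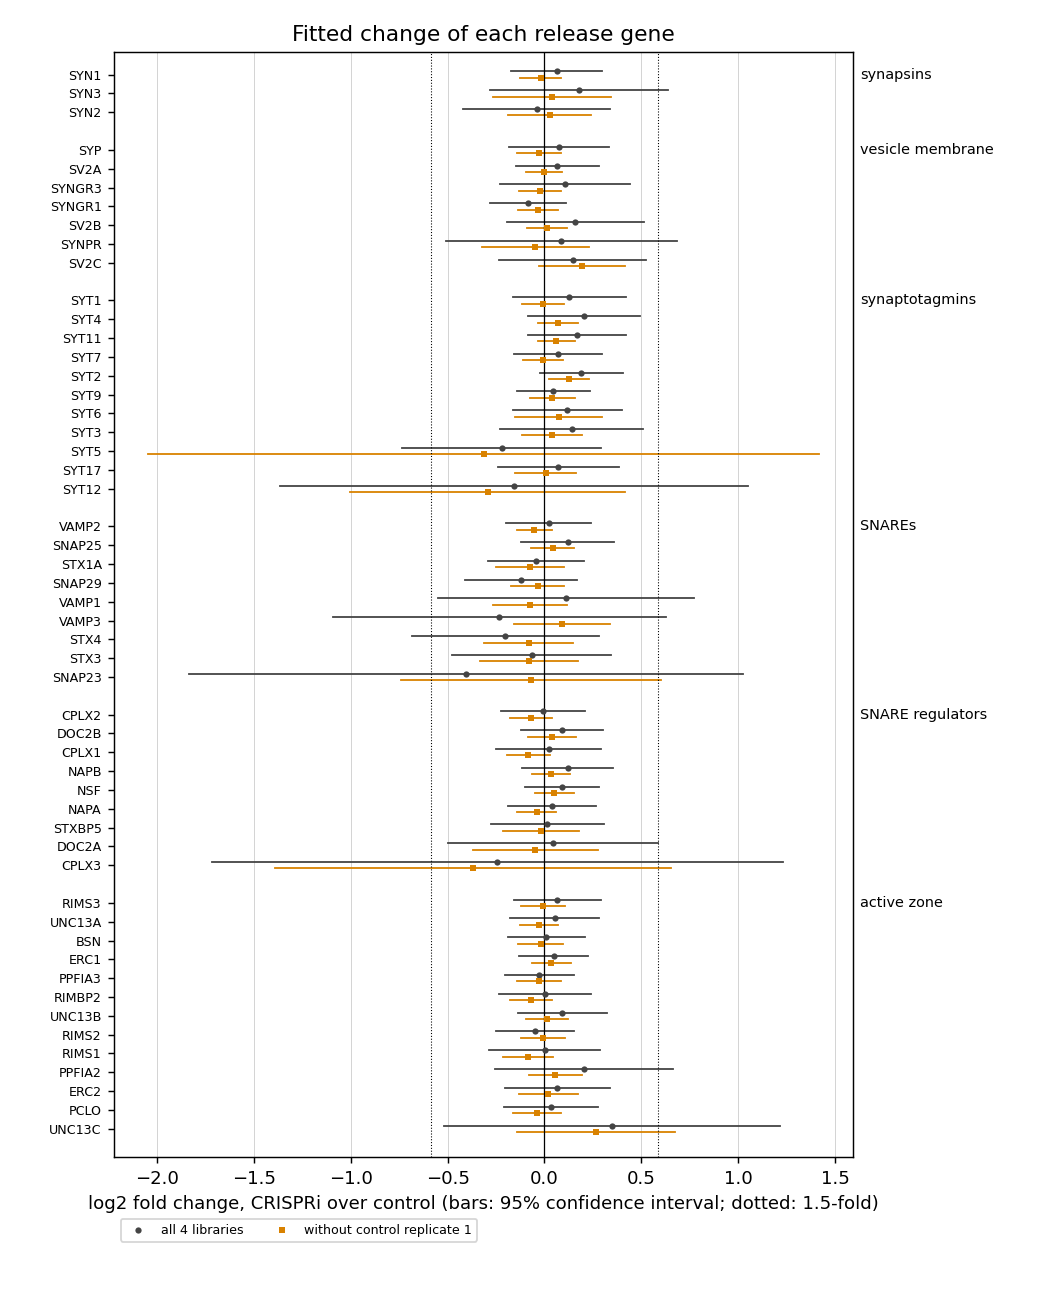
Fitted log2 fold change, CRISPRi over control, with its 95% confidence interval, for each gene with all 4 libraries (dark circles) and without control replicate 1 (orange squares); dotted lines mark a 1.5-fold change. No gene passed the test in either fit, and the interval is narrower without control replicate 1 for every gene except SYT5.

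Without control replicate 1 again 0 members passed (edgeR), with an unadjusted p under 0.05 for 1, SYT2, and for 728 of all 16232 tested genes (4.48%); the smallest adjusted p was 0.98 and SYT2's log2 fold change 0.13 (interval 0.02 to 0.23). Over all genes 0.437% were then called higher and 0.222% lower. The median of the members moved to -0.01 (all genes 0.00), and 21 members were positive where 38 had been with all 4 libraries. Of all tested genes 49.9% were positive without control replicate 1 and 52.7% with all 4 libraries. Intervals lay within 1.5-fold for 47 members and within 2-fold for 49. The log2 fold change of SYT4 became 0.07 (interval -0.03 to 0.17), that of VAMP2 -0.05 (-0.14 to 0.04) and that of SYT5 -0.31 (-2.05 to 1.42). In this fit the control group is a single library, assumed to vary like the CRISPRi libraries.

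By role, the median log2 fold change with all 4 libraries and without control replicate 1 was 0.12 and 0.04 for the 11 synaptotagmins, 0.09 and -0.02 for the 7 vesicle membrane genes, and 0.06 and 0.03 for the 3 synapsins. It was 0.04 and -0.04 for the 9 SNARE regulators, 0.05 and -0.01 for the 13 active zone genes, and -0.07 and -0.07 for the 9 SNAREs. No role therefore had a median beyond 0.12 in either fit.

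The groups did not overlap for 16 members. Both CRISPRi libraries were above both controls for 12 (23.1% of members, 17.8% of all tested genes), and below both for 4, SYNGR1, SNAP29, STX4 and PPFIA3 (7.69% of members, 16.5% of all tested genes). The 12 were SYT2, SYT3, SYT4, SYT9, SYT11, SNAP25, UNC13C, ERC1, ERC2, NSF, NAPB and PPFIA2. Without control replicate 1, both CRISPRi libraries were above control replicate 2 for 14 members and below it for 21. The share of all tested genes was not computed for that comparison.

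Control replicate 1 was the lowest of the 4 libraries for 39 of 52 members (75%), against 50.2% of all tested genes. Among genes with a mean over 10 CPM, where low depth weighs less, it was lowest for 35 of 47 members (74.5%) and for 43.6% of all genes. Together the 52 genes took 0.938% and 0.940% of all counts in CRISPRi libraries, against 0.844% and 0.947% in control replicates 1 and 2. In bulk RNA, fewer neurons and less of these RNAs per neuron cannot be told apart. The 11 of 12 neuron markers that were lowest and the 15 of 15 dividing-cell markers that were highest in the same library stand beside this, and their part in it was not tested.

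**Figure D4:**
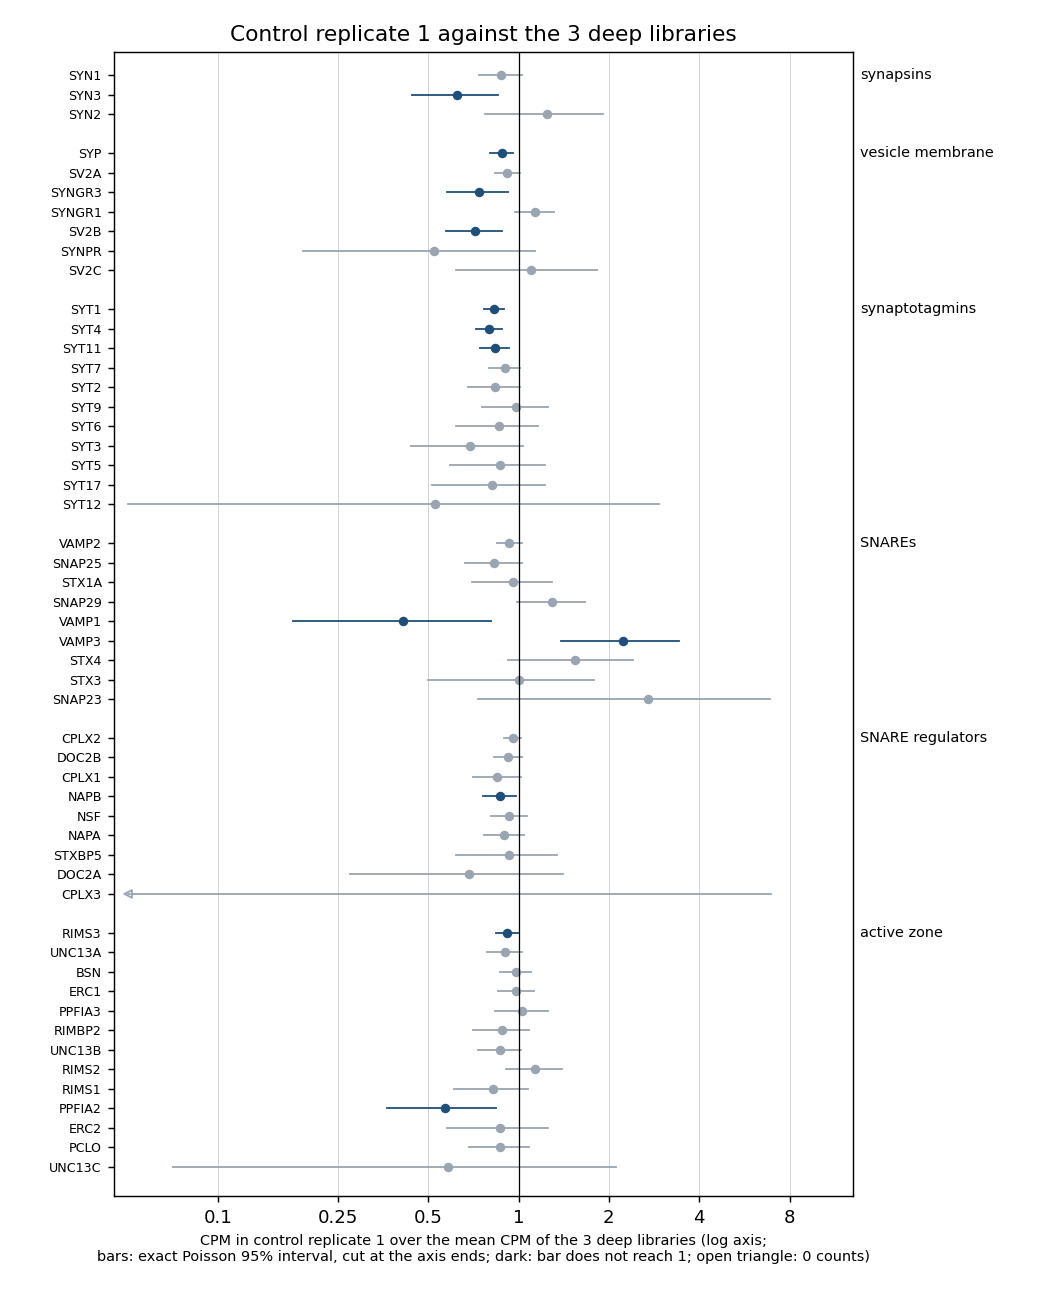
CPM in control replicate 1 divided by the mean CPM of the 3 deep libraries (log axis) for each gene, with the exact Poisson 95% interval of the count in control replicate 1; dark points are those whose interval does not reach 1. Of the 12 dark points 11 lie below 1 and VAMP3 lies above it.

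For 40 members the mean of the deep libraries lay within the counting interval of control replicate 1, so no difference was detectable there at its depth. The 12 outside it were SYN3, SYP, SYNGR3, SV2B, SYT1, SYT4, SYT11, VAMP1, RIMS3, NAPB and PPFIA2, which were lower in control replicate 1, and VAMP3, which was higher. The ratio to the deep mean was 0.412 for VAMP1 and 0.567 for PPFIA2, 0.798 for SYT4 and 0.913 for RIMS3, and 2.23 for VAMP3. By the authors' deposited FPKM, VAMP1 was at 6.45 in control replicate 1, against 7.05 and 7.36 in CRISPRi neurons and 7.33 in control replicate 2. The size of its drop thus depends on the unit, and the cause was not tested. Control replicate 1 was the highest library for 9 members, VAMP3 among them. The others were SNAP23, SNAP29, STX4, SYN2, SYNGR1, RIMS2, SV2C and PPFIA3. Their ratios were 2.69, 1.3, 1.54, 1.25, 1.14, 1.13, 1.1 and 1.03, all with intervals that include 1. Of other widely expressed members, NAPA had a ratio of 0.897 and ERC1 one of 0.982. These intervals cover counting error only. The share of all tested genes outside such an interval was not computed, so the 12 cannot be called particular to release genes. Over 15806 genes even the 2 CRISPRi replicates differed by more than counting error (chi-square per degree of freedom 11.6).

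When control replicate 2 was left out instead, so that control replicate 1 alone stood for the controls, edgeR called 7 members higher (SYT4, SV2B, SYT11, SYT1, PPFIA2, VAMP1 and SYNGR3) and 1 lower (VAMP3), against 3.61% of all tested genes called higher and 4.97% lower. The log2 fold change was then 0.38 for SYT4 (edgeR adjusted p = 0.00817), for VAMP1 1.28 (edgeR adjusted p = 0.0428, 8 counts in control replicate 1) and for VAMP3 -1.10 (edgeR adjusted p = 0.0311, 21 counts). All of the called members are among the 12 genes above. Those 12 were picked by the same counts of control replicate 1 against a mean that includes the CRISPRi libraries, so the overlap is not a separate result. None of the called members passed with control replicate 2 in the fit. The fold change of VAMP1 rests on counts and, as given above, its size depends on the unit.

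The wider release pathway was covered by 39 further genes, such as the RAB3 proteins and CADPS, of which 37 were tested; SYT8 and CPLX4 had no counts. By edgeR 0 rose and 0 fell, with a median log2 fold change of 0.02. At an unadjusted p under 0.05 there were 0, against 0.961% of all tested genes. The smallest p belonged to SYT13, at 132 and 120.4 CPM in CRISPRi neurons and 92.1 and 115 CPM in controls (log2 fold change 0.24, SE 0.12), then RAB3C (0.15, SE 0.09) and SYT10 (-1.28, SE 0.77), which was at or under 1.06 CPM in every library. None of these passed with or without control replicate 1.

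Of 28 genes of vesicle endocytosis and the clathrin coat, 28 were tested and by edgeR 0 rose and 0 fell, with a median of 0.03. At an unadjusted p under 0.05 there were 0, against 0.961% of all tested genes. The kinase AAK1, which phosphorylates the AP2 adaptor, was at 79.3 and 75.3 CPM in CRISPRi neurons, against 130.2 and 86.8 CPM in controls (log2 fold change -0.36, SE 0.17). The endophilin SH3GL2 had a log2 fold change of 0.19 (SE 0.10), and dynamin 2 (DNM2), the ubiquitous dynamin, was at 89.3 and 98.1 CPM against 128 and 101 CPM (-0.21, SE 0.12). Without control replicate 1 AAK1 was at -0.16 and DNM2 at -0.11, with 0 of the 28 genes called and 2 at an unadjusted p under 0.05, against 4.48% of all tested genes.

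The genes lie on 18 chromosomes. On chromosome 11, which carries the targeted element, are SYT7, SYT9, SYT12 and STX3, with log2 fold changes of 0.07, 0.05, -0.16 and -0.07, none of which passed. Several members share exonic sequence with a neighbour that also has counts: 27.2% of the exonic length of SYT2 with PPP1R12B (11772 counts over the 4 libraries), 17.9% of that of STX1A with BUD23 (3183 counts), and 19.7% of that of PPFIA2 with ACSS3 (163 counts). The sources used here do not say whether counting used strand, so the counts of these 3 genes are uncertain to that extent. Shorter stretches are shared by SNAP23 with LRRC57 (221 bases, 3262 counts), by SNAP29 with PI4KA (225 bases, 36992 counts) and by DOC2A with INO80E (285 bases, 6358 counts), and 16.9% of the exonic length of NAPA with NAPA-AS1 (34 counts), so the low counts of SNAP23 and DOC2A in particular are uncertain too.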

How the data were processed

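Bulk polyA RNA (paired-end, 75 bp) was sequenced, 2 libraries per group, described as biologically independent per the labels' protocols. The deposited files give, per RefSeq gene row, an FPKM (length-scaled value) and a count of reads in whole numbers, both made by the authors; build hg38, edgeR and limma are named per the submitters' processing notes, without versions, while the sources used here name no aligner or counting tool. Counts were summed per symbol over all rows, of which 5.08% to 5.15% of counts lay on alternate contigs, and scaled to CPM by the library total. FPKM, 0 on those contigs, was used only to check the order of levels and paralogs. CRISPRi and control were compared by the quasi-likelihood F test of edgeR 4.0.16 (R 4.3.3) with robust dispersions, TMM scaling and the filterByExpr default, group as the single term, and Benjamini-Hochberg adjustment over all tested genes (threshold 0.05); intervals derive from the F statistic. edgeR raised the p of 3 members (ERC2, RIMS2, SYT17) to a Poisson bound. Exonic lengths are unions of GENCODE release 29 exons. No libraries were treated as duplicates.

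Alternatives were other scalings and filters, DESeq2 1.42.0, limma-voom 3.58.1, a replicate block, each library left out, primary chromosomes only and a threshold of 0.1. The members and lists were chosen with earlier results of these data known. Library values were given for family leaders, for 5 members per direction with the smallest p and, beyond that rule, for most other members, chosen after their values were seen.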

Additional observations from a re-analysis of the deposited data

How the results depend on the processing

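No member passed under any scaling, filter, DESeq2, limma-voom, the replicate block, primary chromosomes only or a threshold of 0.1; the exception was leaving out control replicate 2. Leaving out 1 library at a time gave 0 to 7 members called higher and 0 to 1 lower, 0 to 10 genes of the release pathway and endocytosis lists, and 2 to 580 of all genes higher and 15 to 798 lower; the median of the members ran from -0.0126 to 0.196 (0.06 with all 4 libraries), the highest without control replicate 2. DESeq2 called 1 gene higher and 12 lower, and limma-voom 2 lower, where edgeR with all libraries called 0 and 4; the cause was not tested.

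The replicate block called 17 genes higher and 25 lower and no member. Nothing in the labels ties equal replicate numbers, and the deviations of equal-numbered libraries had r = -0.02 over 15419 genes, a value that rests on 2 pairs, one with the shallow library, so whether equal numbers share a batch was not settled.

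Of 287 values of the 24 members named by rule, 262 kept direction and call, 4 newly passed without control replicate 2 (SYNGR3, SYT1, SYT4 and SYT11) and 21 changed sign, the widest swing being that of SYT5, from -0.22 to 0.122 without control replicate 2 and 0.0564 without CRISPRi replicate 1. BSN turned to -0.0052 under total-count scaling and -0.0107 with limma-voom, UNC13A to -0.0038 and VAMP2 to -0.0204 with limma-voom. With 1 library left out, log2 fold changes ran from -0.0251 to 0.0522 for BSN, -0.0711 to 0.0696 for CPLX2, -0.0568 to 0.0040 for PPFIA3, -0.0066 to 0.156 for RIMS3, -0.0954 to 0.0593 for STX1A, -0.0021 to 0.15 for SV2A, -0.0195 to 0.216 for SYN1, -0.0216 to 0.46 for SYNGR3, -0.0286 to 0.205 for SYP, -0.0074 to 0.296 for SYT1, -0.416 to 0.122 for SYT5, -0.0286 to 0.171 for UNC13A and -0.0517 to 0.112 for VAMP2.

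A leader held over 50% in all libraries in 14 of 16 families per kb, in 15 by raw counts or without control replicate 1, in 13 of 15 on primary chromosomes and in 12 of 15 by the authors' FPKM, which was added after the data were seen. NSF and DOC2B gave no value on primary chromosomes. Depth limits control replicate 1: 3 counts there equal 3.17 CPM, and with it alone as control the test rests on 1 library.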
